A study of Mus musculus with 14 samples.

Results

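The insulin, growth hormone and insulin-like growth factor (IGF) axis was followed through 10 genes in the liver and kidney of mice on a normal or a high salt diet. The genes were Igf1, Ghr, Insr, Igfals, Igfbp1, Igfbp2, Igfbp4, Irs1, Irs2 and Foxo1. They were chosen by name, as the hormone gene Igf1, its carriers, the receptors of growth hormone and insulin, and the first steps of insulin signalling. All were found by gene symbol in the count tables. They are 10 of the 22263 genes named in the liver or the kidney table, and all 10 passed the filter on low counts in every comparison.

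All animals were adult male mice of 12 weeks that carried a human angiotensinogen transgene of the haplotype labelled Hap -6A. Angiotensinogen is the precursor of angiotensin, a peptide that raises blood pressure. Liver was sequenced in 4 libraries of mice on a normal diet and 4 of mice on high salt, and kidney in 3 libraries of each diet. Every group carried the transgene, so no value here compares transgenic with other mice. The salt dose and the length of the diet are not given in the sources used here. Nothing in the labels says which libraries came from 1 animal, so p-values measure the spread between these libraries, which may be technical.

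Insulin acts through its receptor Insr, which phosphorylates the adaptors Irs1 and Irs2, and the signal that follows drives the transcription factor Foxo1 out of the nucleus. Growth hormone acts on the liver through Ghr, JAK2 and STAT5 and is the main stimulus of hepatic Igf1, the source of most circulating IGF-1. In blood IGF-1 travels with binding proteins (IGFBPs) and with the acid-labile subunit encoded by Igfals. Insulin lowers hepatic Igfbp1 transcription by way of Foxo1, and fasting raises it.

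Promoter windows were available for 9 of the 10 genes, as 13 windows of 300 bases that run from 250 bases before to 50 bases after a start (RefSeq, GRCm38.p6). Short motifs were looked for on both strands. They were CAAAACA, a core of the insulin response sequence to which FOXO factors bind, GTAAACA, a forkhead core, and TTCNNNGAA, the palindrome of STAT factors. Positions count back from the start, with -1 as the base before it. The windows below are those of the diet comparison's smallest p-values (Igfbp1 and Irs1), of the other adaptor gene with the same motif (Irs2) and of the gene that held the STAT palindrome (Igfals). Capitals mark the motif matches, read 5′ to 3′ on the gene's strand, and none of them overlapped another.
Igfbp1: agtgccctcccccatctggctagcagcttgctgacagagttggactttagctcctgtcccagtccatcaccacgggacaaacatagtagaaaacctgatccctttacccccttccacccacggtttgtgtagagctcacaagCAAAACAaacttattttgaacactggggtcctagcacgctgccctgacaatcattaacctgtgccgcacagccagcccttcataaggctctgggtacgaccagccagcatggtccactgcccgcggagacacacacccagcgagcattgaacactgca
Irs1: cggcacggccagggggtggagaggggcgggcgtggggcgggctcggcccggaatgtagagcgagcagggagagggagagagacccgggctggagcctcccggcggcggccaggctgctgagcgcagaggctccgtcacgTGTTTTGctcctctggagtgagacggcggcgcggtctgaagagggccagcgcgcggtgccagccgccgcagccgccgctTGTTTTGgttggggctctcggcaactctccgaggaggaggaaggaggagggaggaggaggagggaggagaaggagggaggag
Irs2: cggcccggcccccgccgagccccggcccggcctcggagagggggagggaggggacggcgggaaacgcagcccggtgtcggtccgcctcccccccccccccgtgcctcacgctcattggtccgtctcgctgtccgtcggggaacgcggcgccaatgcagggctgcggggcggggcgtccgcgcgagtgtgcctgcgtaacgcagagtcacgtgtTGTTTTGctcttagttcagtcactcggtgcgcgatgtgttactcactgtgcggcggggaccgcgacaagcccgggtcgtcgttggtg
Igfals: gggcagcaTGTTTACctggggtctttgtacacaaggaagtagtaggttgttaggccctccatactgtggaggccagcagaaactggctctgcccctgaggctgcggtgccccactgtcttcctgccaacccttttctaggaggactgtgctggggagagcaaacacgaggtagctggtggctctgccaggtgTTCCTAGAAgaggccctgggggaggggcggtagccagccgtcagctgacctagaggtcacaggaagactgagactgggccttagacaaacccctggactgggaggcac
The Igfbp1 window lies on the plus strand at chr11:7197537-7197836 and holds CAAAACA from -108 to -102. The Irs1 window (minus strand, chr1:82291390-82291689) holds the same motif on its other strand from -111 to -105 and from -32 to -26. The Irs2 window (minus strand, chr8:11008880-11009179) holds it on its other strand from -37 to -31. CAAAACA was thus in 3 of the 13 windows, and in 6.28% of all 32851 windows. The Igfals window (plus strand, chr17:24877981-24878280) holds TTCNNNGAA from -58 to -50 and GTAAACA on its other strand from -242 to -236, and another Igfals window holds TTCNNNGAA from -236 to -228. TTCNNNGAA was in 2 and GTAAACA in 1 of the 13 windows, against 8.3% and 3.65% of all windows. A match describes these letters and does not show that a factor binds there.

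Summed gene counts ran from 37267778 to 51487382 per liver library, and from 16046094 to 22004927 per kidney library. The normal diet liver libraries are called 1 to 4, and the high salt liver libraries HS5 to HS8 after their columns, whose numbers match no title. Hepatocyte markers (Alb, Ttr, Apoa1, Cps1 and Fah) summed to 43145 or more counts per 1000000 (CPM) in every liver library and to 231 or less in every kidney library, and proximal tubule markers to 1739 or more in kidney and 7.46 or less in liver. Normal diet liver libraries 1 and 2 stood apart. Mitochondrial genes made up 2.30% and 2.06% of their counts, against 11.3% to 29.6% in the other 6. Transcript length was compared after centring each gene's log2 level on its mean over the liver libraries. The median of genes with transcripts of 5000 bases or more then lay 0.68 and 0.67 below that of genes under 2000 bases. In the other 6 libraries it lay 0.01 to 0.39 above, with 0.19 and 0.01 in normal diet libraries 3 and 4 and 0.13 to 0.39 on high salt. The acute phase genes were Saa1, Saa2, Saa3, Lcn2, Orm2, Hp, Crp and Apcs. They summed to 3654, 4132, 2284 and 56029 CPM in normal diet liver libraries 1 to 4 and to 1343 to 1727 CPM on high salt. The sum thus separated the diets (two-sided exact permutation p = 0.0286, the smallest possible with 4 against 4), with library 4 far above the rest. Hp held the largest part of it in every liver library. Taken one by one, Saa2, Saa3 and Apcs overlapped between the diets and the others did not, where 12.5% of all genes did not overlap. HS5 and HS6 resembled each other much more closely than the other 11 pairs of liver libraries on 1 diet did, with a chi-square per gene of 1.59 against 9.83 to 62.8, where sampling noise gives about 1. Liver permutation p-values count HS5 and HS6 as separate libraries. Counted as 1 library, they would make the smallest possible p larger. For most axis genes the liver diet difference is also given without some of these libraries. The gene lists around the axis are given only with all libraries.

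None of the 10 axis genes passed the threshold between high salt and normal diet in liver. The nearest was Irs1, whose level was higher in all 4 high salt libraries than in any normal diet library, with a mean 2.61-fold as high. Igfbp1 had the widest difference, with a normal diet mean 5.96-fold that of high salt, but the diets overlapped and 1 normal diet library held most of the level. Igfbp4, per length the most abundant of the 10 in liver, had a lower level in all 4 high salt libraries by a small margin. By edgeR's quasi-likelihood test with Benjamini-Hochberg adjustment over 15130 genes, 1% of genes passed an adjusted p of 0.05 (152 genes, 90 higher and 62 lower on high salt) and 0 of the 10 axis genes did. Without adjustment 3 of the 10 had p under 0.05 (Irs1, Igfbp1 and Igfbp4), where 21.2% of all genes did. The median log2 fold change of the 10 was -0.24, with 3 above 0 and 7 below, and that of all genes was -0.023. The diets did not overlap for 2 of the 10, Irs1 (higher) and Igfbp4 (lower), and for 12.5% of all genes (6.44% higher and 6.05% lower).

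**Figure D1:**
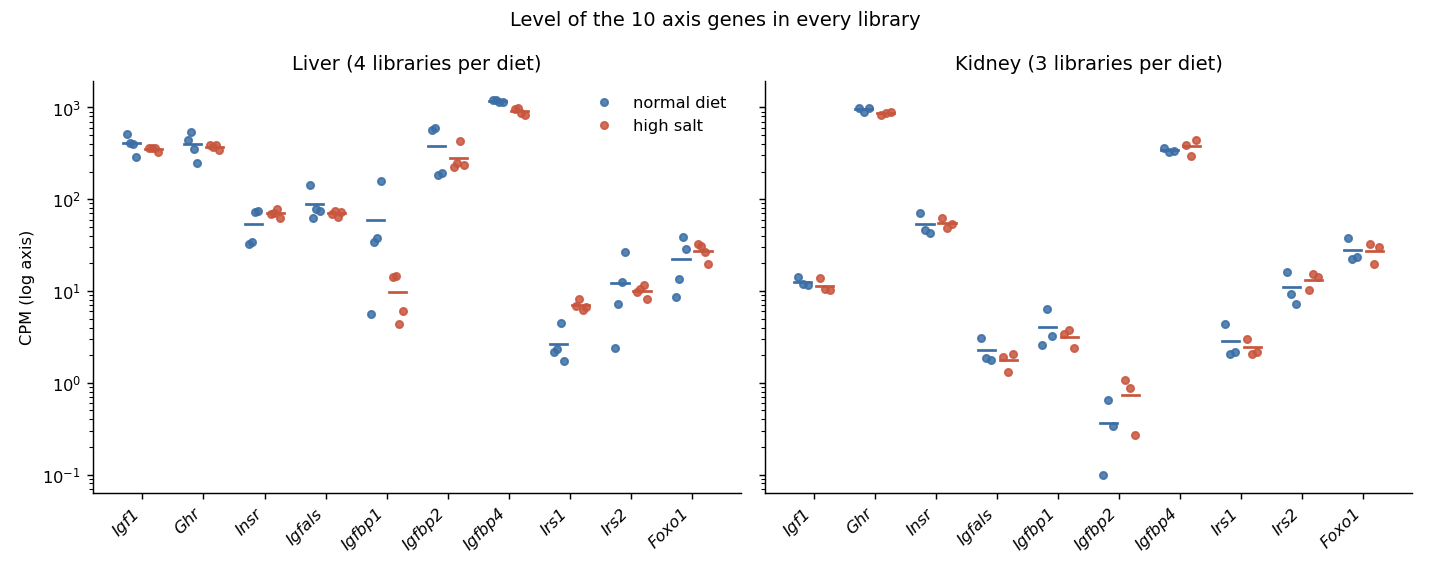
Level of the 10 genes in each library, in CPM on a log axis, for liver (left) and kidney (right). Points are libraries, short lines are group means, blue is the normal diet and red high salt. In liver the red points lie closer together than the blue ones for each gene but Igfbp4, and in kidney the diets overlap for 9 of the 10 genes.

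**Figure D2:**
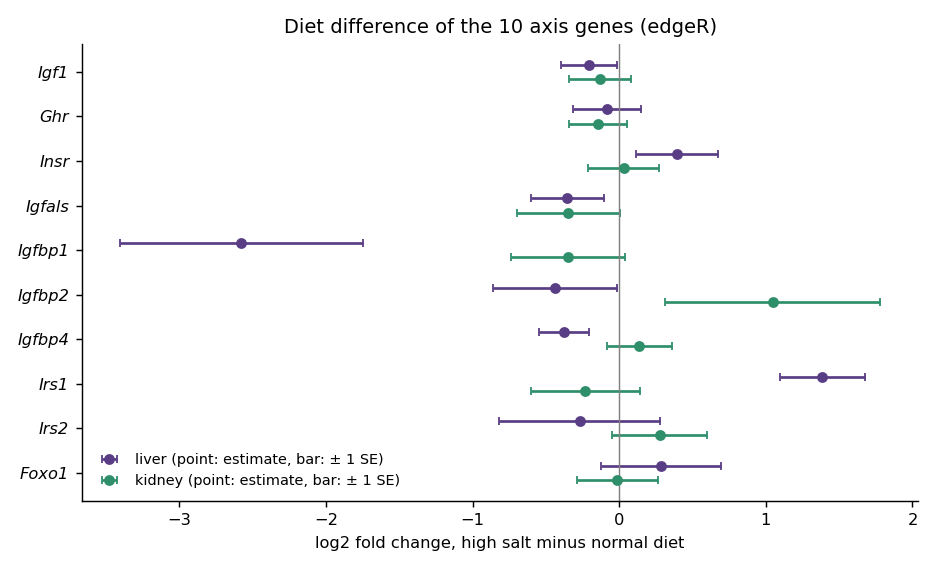
Log2 fold change of each gene, high salt minus normal diet, in liver (purple) and kidney (green). Points are edgeR estimates and bars are 1 standard error (SE) to either side. Irs1 at 1.38 and Igfbp1 at -2.58 lie farthest from 0 in liver, and Igfbp2 at 1.05 does in kidney, where it rests on at most 24 counts per library.

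Igf1, the hormone itself (chromosome 10, 87858265 to 87937042, GRCm38), was read at 519, 410, 405 and 292 CPM in normal diet liver libraries 1 to 4 and at 362, 365, 357 and 326 CPM in HS5 to HS8. The high salt values fell inside the range of the normal diet. High salt minus normal diet was -0.21 on the log2 scale (SE 0.19, edgeR adjusted p = 0.554, n = 4 per diet), and 0.017 when normal diet libraries 1 and 2 were left out together.

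Ghr, the growth hormone receptor (chromosome 15, 3317760 to 3583492), stood at 445, 536, 350 and 251 CPM on the normal diet and at 387, 372, 392 and 345 CPM on high salt. Libraries 1 and 2 were the high ones of the normal diet, and all 4 high salt values lay between them and library 4. Its log2 fold change was -0.082 (SE 0.23, edgeR adjusted p = 0.864), and it turned to 0.32 without libraries 1 and 2 and to 0.097 without library 2 alone.

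Insr, the insulin receptor (chromosome 8, 3122061 to 3279617), was read at 32.7 and 34.5 CPM in normal diet libraries 1 and 2 and at 72.1 and 73.8 CPM in libraries 3 and 4. The high salt libraries held 69.1, 70.3, 78.5 and 61.9 CPM. High salt thus matched the upper pair of the normal diet, and only the pair that also stood apart in mitochondrial share and transcript length was low. The log2 fold change of 0.39 (SE 0.28, edgeR adjusted p = 0.435) became -0.059 without that pair and -0.034 with a transcript length offset, an alternative chosen after seeing the data. Summed endothelial markers were also lowest in that pair, at 54.5 and 54.0 CPM against 62.9 to 122 CPM in the other 6 libraries, and their part in the result was not tested.

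Igfals, the acid-labile subunit that holds IGF-1 in its large circulating complex (chromosome 17, 24865997 to 24882010), was read at 144, 61.8, 77.4 and 74.95 CPM on the normal diet and at 68.3, 75.04, 64.8 and 71.9 CPM on high salt. Library 1 was the high one, and the rest of the normal diet overlapped with high salt. A log2 fold change of -0.35 resulted (SE 0.25, edgeR adjusted p = 0.428), which was -0.036 without library 1.

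Igfbp1, the insulin-suppressed binding protein (chromosome 11, 7197782 to 7202546), varied more than any other of the 10 genes within the normal diet. It was read at 5.66, 33.9, 38.1 and 158 CPM in normal diet libraries 1 to 4 and at 14.3, 14.7, 4.39 and 6.13 CPM in HS5 to HS8. Library 4 was 4.15-fold above the next, and library 1 fell among the high salt values, so the diets overlapped. The log2 fold change was -2.58 (SE 0.83, edgeR adjusted p = 0.142, n = 4 per diet). It was -1.40 without library 4 (adjusted p = 0.176) and -3.30 without libraries 1 and 2 (adjusted p = 0.0795). Library 4 also held the high acute phase level, 2 of the 4 neutrophil markers, S100a8 and S100a9, at 18.2 and 31.7 CPM, and the lowest Alb of the 8 liver libraries. Of the other hepatocyte markers, Cps1 was also lowest there, Fah was highest there, and Ttr and Apoa1 were lower in library 3. The acute phase sum was lower in every high salt library than in any normal diet library, as given above. The summed neutrophil markers were 0.666 to 1.07 CPM in normal diet libraries 1 to 3 and 0.767 to 1.31 CPM on high salt, with Ly6g at 0.26 CPM or less in every liver library. The part of these signals in the Igfbp1 value was not tested.

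Igfbp2, a binding protein made in quantity by the liver (chromosome 1, 72824503 to 72852474), ran opposite to Insr. It was read at 567 and 599 CPM in normal diet libraries 1 and 2 and at 181 and 193 CPM in libraries 3 and 4. High salt libraries held 227, 247, 427 and 233 CPM, so 3 of them lay just above the lower pair and HS7 lay apart. Between the diets the log2 fold change was -0.44 (SE 0.42, edgeR adjusted p = 0.562) and 0.60 without libraries 1 and 2 (adjusted p = 0.362).

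Igfbp4, a binding protein that holds IGFs until it is cleaved (chromosome 11, 99041244 to 99054392), was the steadiest gene of the axis within the normal diet. It was read at 1213, 1198, 1154 and 1147 CPM on the normal diet and at 960, 983, 863 and 825 CPM on high salt. Every high salt library lay below every normal diet library. Libraries 1 and 2 lay above libraries 3 and 4 here by only 0.068 on the log2 scale. A difference of -0.38 on the log2 scale (SE 0.17) did not pass (edgeR adjusted p = 0.236). Over 20 alternatives it stayed between -0.48 and -0.33, and DESeq2 was the 1 alternative that called it (adjusted p = 0.0335). Hepatocyte markers, of which Alb made up most, summed to 83647 to 100530 CPM on high salt and to 43145 to 67695 CPM on the normal diet. Their sum thus separated the diets (two-sided exact permutation p = 0.0286, the smallest possible with HS5 and HS6 counted as separate libraries). Taken one by one they were mixed. The high salt mean was 1.70-fold that of the normal diet for Alb (no overlap) and 1.21-fold for Ttr, and 0.898-fold for Apoa1, 0.884-fold for Cps1 and 0.852-fold for Fah (no overlap), and their part in the Igfbp4 value was not tested. In bulk tissue, fewer cells of a type and less RNA per cell cannot be told apart.

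**Figure D3:**
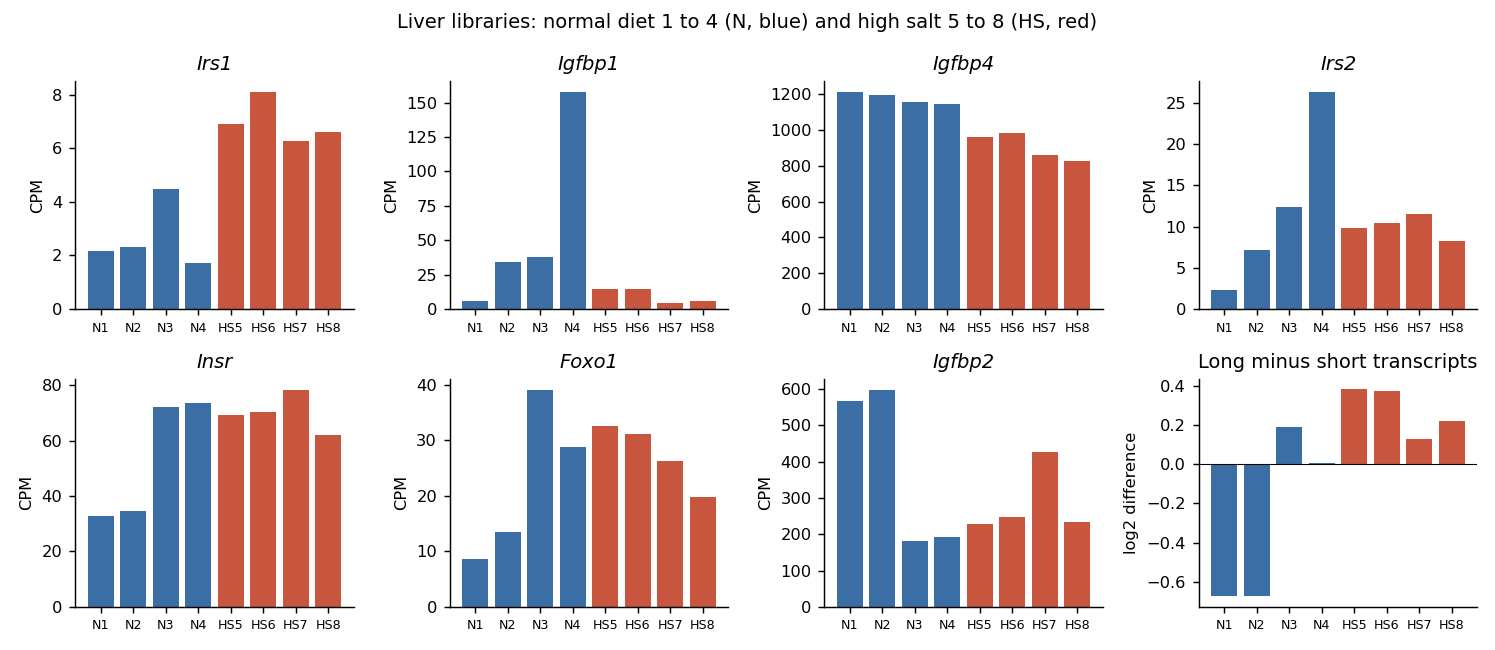
CPM of 7 of the genes in each of the 8 liver libraries (bars start at 0). The last panel gives the median log2 level of genes with long transcripts minus that of genes with short ones. For that panel each gene was first centred on its mean over these libraries. N1 to N4 are normal diet libraries 1 to 4 (blue) and HS5 to HS8 high salt (red). Irs1 and Igfbp4 separate the diets, N4 stands out for Igfbp1 and Irs2, and N1 and N2 stand out for Insr, Foxo1, Igfbp2 and the transcript length measure.

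Irs1, an adaptor of the insulin and IGF-1 receptors (chromosome 1, 82233101 to 82291416), was read at 2.16, 2.32, 4.50 and 1.73 CPM in normal diet libraries 1 to 4 and at 6.89, 8.10, 6.26 and 6.62 CPM in HS5 to HS8. These values rest on 72.3 to 143 expected counts per library on the normal diet and 301 to 391 on high salt. All 4 high salt libraries lay above library 3, the highest of the normal diet. The log2 fold change was 1.38 (SE 0.29, edgeR adjusted p = 0.0598, n = 4 per diet). It was called in 5 of 20 alternatives, namely by DESeq2, by limma on the deposited normalized values with either pseudocount, in the fit of all 14 libraries and without normal diet library 3, with adjusted p-values from 0.000498 to 0.219 over all 20. The value was 0.90 with the transcript length offset (adjusted p = 0.115), 1.17 without normal diet libraries 1 and 2 (adjusted p = 0.188) and 1.34 with HS5 and HS6 summed to 1 library (adjusted p = 0.208).

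Exons of Irs1 overlap those of Gm9747 on the other strand, and the counting is not stated to use strand, so reads of these genes cannot be told apart. Exons of Irs2 overlap those of 9530052E02Rik in the same way, and exons of Foxo1 those of Gm20402. Neither overlapping gene is among those counted in liver or kidney, so its share of the reads cannot be given. Gm9747 was read at 2.26, 2.42, 8.30 and 2.62 CPM on the normal diet and at 5.97, 4.56, 10.02 and 7.54 CPM on high salt. Summed with it, Irs1 stood at 4.42, 4.74, 12.8 and 4.35 CPM on the normal diet and at 12.9, 12.7, 16.3 and 14.2 CPM on high salt. Normal diet library 3 then reached the level of HS5 and HS6. The summed means differed 2.13-fold (two-sided exact permutation p = 0.0571). The smallest possible p is 0.0286 with HS5 and HS6 counted as separate libraries.

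Irs2, the other main adaptor of the insulin receptor in liver (chromosome 8, 10984681 to 11008458), was read at 2.38, 7.19, 12.4 and 26.3 CPM on the normal diet and at 9.82, 10.5, 11.6 and 8.21 CPM on high salt. It varied 11.1-fold between normal diet libraries, with library 4 the highest, as for Igfbp1. The log2 fold change of -0.27 (SE 0.55, edgeR adjusted p = 0.801) was -0.95 without libraries 1 and 2, and turned to 0.45 without library 4 and to 0.19 by limma on the deposited normalized values. Per kilobase of exon, Irs1 stood at 0.629, 0.223, 0.251 and 0.0454 of Irs2 in normal diet libraries 1 to 4 and at 0.374 to 0.558 on high salt, so 3 normal diet libraries lay below every high salt library and library 1 lay above them.

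Foxo1, the forkhead factor that insulin signalling inactivates (chromosome 3, 52268336 to 52353221), was read at 8.63, 13.5, 39.1 and 28.9 CPM on the normal diet and at 32.5, 31.1, 26.3 and 19.7 CPM on high salt. Libraries 1 and 2 were the low ones, as for Insr, and the 4 high salt values lay around that of library 4 and below that of library 3. The diet difference was 0.28 on the log2 scale (SE 0.41, edgeR adjusted p = 0.714), -0.31 without libraries 1 and 2 and -0.063 with the transcript length offset. Foxo1 and Insr had a Pearson r of 0.92 over the 8 liver libraries, and Igfbp2 and Foxo1 one of -0.83, given as a description since these libraries share the split of libraries 1 and 2 from the rest.

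**Figure D4:**
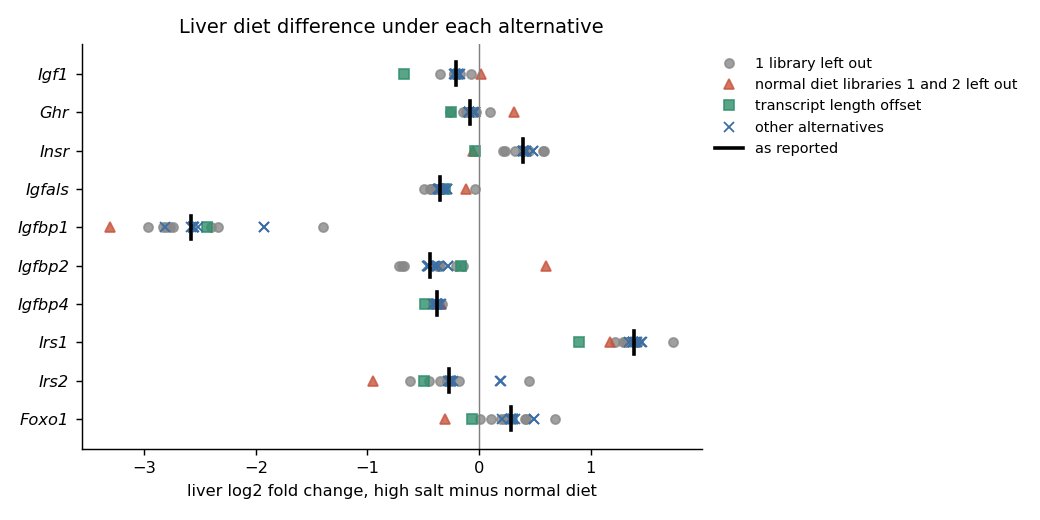
Liver log2 fold change of each gene, high salt minus normal diet, as reported (black line) and under each of 20 alternatives (symbols). Igfbp1 stays below 0 from -3.30 to -1.40, Igfbp4 from -0.48 to -0.33 and Irs1 above 0 from 0.90 to 1.74, while Insr, Foxo1, Igfbp2, Ghr, Igf1 and Irs2 cross 0.

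Kidney showed no axis gene past the threshold, and none with an unadjusted p under 0.05, where 2.01% of 15847 genes had one (edgeR; 0% passed an adjusted p of 0.05, and DESeq2 called 11 genes and none of the 10). Ghr was the 1 gene of the 10 whose diets did not overlap, lower on high salt, where 6.92% of all genes did not overlap (3.85% higher and 3.07% lower). It was read at 996, 899 and 979 CPM in normal diet libraries 1 to 3 and at 819, 880 and 899 CPM in high salt libraries 1 to 3. The highest high salt value all but met the lowest of the normal diet, and the log2 fold change was -0.15 (SE 0.20, edgeR adjusted p = 0.9997, n = 3 per diet). Igfbp4 was read at 363, 329 and 333 CPM on the normal diet and at 390, 297 and 440 CPM on high salt, with a log2 fold change of 0.14 (SE 0.22). The high salt libraries lay on both sides of the normal diet.

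The insulin receptor and its signal carriers likewise overlapped between the diets in kidney. Insr was read at 71.0, 46.6 and 43.2 CPM on the normal diet and at 62.0, 48.5 and 53.7 CPM on high salt. Foxo1 was read at 37.4, 22.5 and 23.3 CPM and at 32.6, 19.9 and 29.8 CPM. Normal diet library 1 was the highest for both, and of all kidney libraries also for Irs1, Irs2, Igf1, Igfals and Ghr. It also had the largest long-minus-short transcript value, 0.62 against -0.28 to 0.23 in the other 5, with genes centred over the kidney libraries. The longest transcripts have 9355 bases for Insr and 8665 for Foxo1, but 4175 for Ghr and 2625 for Igfals. The part of transcript length in these levels was not tested. Irs1 stood between 2.05 and 4.35 CPM on the normal diet and between 2.08 and 3.04 CPM on high salt, with a log2 fold change of -0.23 (SE 0.37). Irs2 stood between 7.26 and 16.3 CPM and between 10.3 and 15.3 CPM, with a log2 fold change of 0.28 (SE 0.32). Per kilobase of exon the order of these genes, Insr above Foxo1, Irs2 and Irs1, was the same in both organs.

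Igf1, Igfbp1, Igfals and Igfbp2 were scarce in kidney on both diets, unlike the carrier Igfbp4. Igf1 was read at 14.2, 11.9 and 11.6 CPM on the normal diet and at 13.8, 10.5 and 10.1 CPM on high salt (log2 fold change -0.13, SE 0.21). Igfbp1 lay between 2.36 and 6.38 CPM over the 6 libraries (log2 fold change -0.35, SE 0.39) and Igfals between 1.32 and 3.10 CPM (log2 fold change -0.35, SE 0.35). Igfbp2 rested on 2, 11 and 7 counts on the normal diet and 24, 14 and 6 counts on high salt. Its log2 fold change of 1.05 (SE 0.73) was not distinguishable from 0 at this depth. A p that misses the threshold with 3 libraries per diet does not show that the diets were alike.

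Whether the diet difference itself differed between the organs was tested by the interaction in 1 fit of all 14 libraries over 16633 genes. None of the 10 genes passed (edgeR; 0% of genes passed, with 10.1% at an unadjusted p under 0.05, and DESeq2 called 145 genes and none of the 10). Irs1 came nearest, with a difference of 1.63 between its liver and kidney log2 fold changes (SE 0.48, edgeR adjusted p = 0.291), and it was the 1 axis gene with an unadjusted p under 0.05. Igfbp1 followed at -2.17 (SE 1.07, adjusted p = 0.511), which was -1.03 without normal diet liver library 4, and Igfbp2 at -1.53 (SE 0.89, adjusted p = 0.571). The other 7 lay between -0.51 and 0.39. This fit uses the same liver libraries as the liver comparison, so the Irs1 value is not separate evidence.

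The organs differed far more than the diets. On the normal diet 5 of the 10 genes were called between liver and kidney (edgeR over 15688 genes shared by both tables), all higher in liver, where 58.5% of all genes were called, 30% higher and 28.5% lower in liver. These were the hormone and the 4 carriers among the 10. Igfbp2 was 10.62 higher in liver on the log2 scale (SE 0.87, adjusted p = 5.672e-06), Igfals 5.84 (SE 0.44, adjusted p = 3.418e-06) and Igf1 5.55 (SE 0.37, adjusted p = 1.558e-06). Igfbp1 was 4.41 higher (SE 0.98, adjusted p = 0.00325) and Igfbp4 2.32 higher (SE 0.34, adjusted p = 0.000255). Each of these calls held in all 11 alternatives. The kidney level of Igfbp2 was 0.0632% of the liver level, and Igf1, Igfals and Igfbp1 stood at 2.11%, 1.72% and 4.88%. The 5 hepatocyte markers ran from 0.013% (Apoa1) and 0.0256% (Alb) to 0.523% (Ttr) and 12.0% (Fah), with their sum at 0.153%. The part of liver RNA carried into the kidney libraries was not tested.

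The receptors, adaptors and Foxo1 were not called between the organs. Ghr was 0.74 lower in liver on the log2 scale (SE 0.34, edgeR adjusted p = 0.088), a value that DESeq2 called (adjusted p = 0.0249). Insr was 0.52 higher (SE 0.36), Irs1 0.43 (SE 0.45), Irs2 0.66 (SE 0.65) and Foxo1 0.23 (SE 0.47). Irs2 turned to -0.068 without normal diet liver library 4 and Foxo1 to -0.19 without library 3.

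Per length of exon the genes fell into tiers that differed between the organs. In normal diet liver Igfbp4 stood at 267 ± 7.37 CPM per kilobase (SD, n = 4) and Igfbp2 at 208 ± 124. The next tier held Ghr at 43.7 ± 13.6, Igf1 at 41.0 ± 9.36, Igfbp1 at 38.6 ± 44.3 and Igfals at 28.2 ± 11.6 CPM per kilobase. Insr at 3.88 ± 1.65, Foxo1 at 2.60 ± 1.62, Irs2 at 1.91 ± 1.64 and Irs1 at 0.293 ± 0.135 CPM per kilobase formed the lowest. Neighbours in this order overlapped within a tier, and the ranges of neighbours were apart between Igfbp2 and Ghr and between Igfals and Insr. Igfbp1 crossed both borders, as it ran from 3.71 to 103 CPM per kilobase. It thus overlapped with Insr (2.38 to 5.37) and with Igfbp2 (98.3 to 324). On high salt the liver order was the same but for Igfbp1 at 6.47 ± 3.52 CPM per kilobase. It fell below Igfals at 22.1 ± 1.41 and again overlapped with Insr.

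In normal diet kidney Ghr came first at 106 ± 5.68 CPM per kilobase (SD, n = 3), followed by Igfbp4 at 77.4 ± 4.20, and these ranges did not overlap. Insr at 3.90 ± 1.11, Foxo1 at 3.20 ± 0.966, Igfbp1 at 2.66 ± 1.34, Irs2 at 1.74 ± 0.747 and Igf1 at 1.27 ± 0.143 CPM per kilobase overlapped each with the next. Igfals stood at 0.712 ± 0.231, Irs1 at 0.313 ± 0.141 and Igfbp2 at 0.195 ± 0.148. On high salt Ghr and Igfbp4 again came first in kidney, at 95.6 ± 4.64 and 85.1 ± 16.5 CPM per kilobase, but their ranges overlapped. On the normal diet Ghr thus led the 10 genes in kidney and came after Igfbp4 and Igfbp2 in liver.

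The IGF binding protein transcripts had a different make-up in each organ. Of the summed Igfbp1 to Igfbp7 level per kilobase, Igfbp4 made up 42.4% to 61.9% in the liver libraries and Igfbp2 21.4% to 50.6%. Igfbp1 made up 0.605% to 5.91% in 7 liver libraries and 21.3% in normal diet library 4. In kidney Igfbp7 made up 61.8% to 66.5%, Igfbp4 13.2% to 16.3%, Igfbp3 7.92% to 17.1% and Igfbp5 4.82% to 10.4%, and Igfbp2 stayed under 0.1%. Igfbp4 was first and Igfbp2 second in 5 of the 8 liver libraries, and Igfbp2 was first in libraries 1, 2 and HS7.

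**Figure D5:**
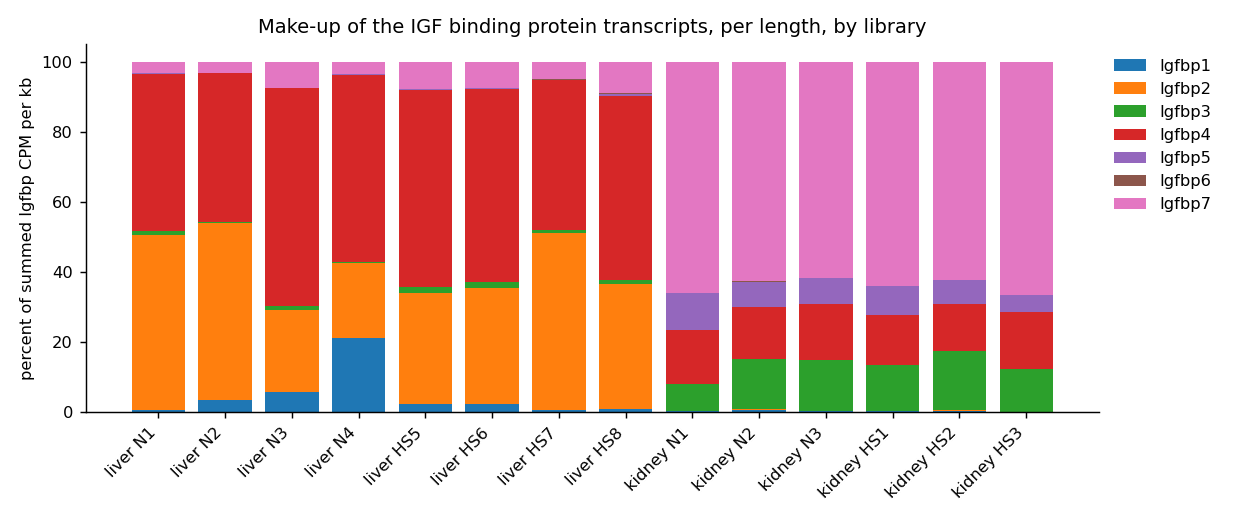
Share of each IGF binding protein gene in the summed CPM per kilobase of Igfbp1 to Igfbp7, for each library (bars sum to 100%). Igfbp2 (orange) and Igfbp4 (red) fill most of each liver bar, Igfbp1 (blue) reaches 21.3% in normal diet liver library 4, and Igfbp7 (pink) fills 61.8% to 66.5% of each kidney bar.

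Genes around the axis were counted in 4 lists. In liver 0 genes of any list passed the threshold between the diets. Of 41 genes of insulin signalling, 30 had a log2 fold change above 0 (median 0.33), where 48.0% of all genes did, and 13 had an unadjusted p under 0.05 with a higher and 1 with a lower level on high salt, where 21.2% of all genes had such a p in either direction. Phlpp2, a phosphatase that acts on AKT, had a log2 fold change of 0.87 (SE 0.22, adjusted p = 0.0941) and Sos1, which links receptors to RAS, 0.79 (SE 0.21, adjusted p = 0.0975, edgeR). Normal diet libraries 1 and 2 were low in long transcripts, and the part of that in the list was not tested.

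Of 10 tested genes among the other ligands, receptors and binding proteins, 8 lay above 0 (median 0.48). Lepr, the leptin receptor, was read at 0.333, 0.872, 1.04 and 0.865 CPM on the normal diet and at 4.33, 3.92, 3.87 and 1.18 CPM on high salt. Its log2 fold change was 2.10 (SE 0.46, edgeR adjusted p = 0.0675), and all 4 high salt libraries lay above the normal diet. Htra1, a protease that cleaves binding proteins, had a log2 fold change of 0.88 (SE 0.37, adjusted p = 0.211). Of 16 genes of growth hormone JAK-STAT signalling, 8 lay above and 8 below 0 (median -0.0061). Serpina3k, a liver-secreted serpin, had a log2 fold change of -1.18 (SE 0.29, adjusted p = 0.0839) and Jak2, the kinase bound to Ghr, 0.42 (SE 0.15, adjusted p = 0.175). Of 19 FOXO factors and FOXO1 target genes 11 lay above 0 (median 0.13), led by Foxo4 at 0.59 (SE 0.24, adjusted p = 0.199) and Mttp, which loads lipid onto apolipoprotein B, at 0.40 (SE 0.17, adjusted p = 0.213, edgeR).

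In kidney 0 genes of these lists passed the threshold, and 2 had an unadjusted p under 0.05 (edgeR). They were Prlr, the prolactin receptor, at 1.97 (SE 0.68), and Mttp at 0.53 (SE 0.20). Tested genes numbered 40 for insulin signalling, 15 for other ligands, receptors and binding proteins, 14 for growth hormone signalling and 18 for FOXO. Over all 15847 kidney genes 2.01% had such a p. Prlr was read at 3.75, 7.44 and 7.75 CPM on the normal diet and at 16.8, 6.37 and 50.8 CPM on high salt, so the diets overlapped and 1 library held most of the level. Other small p-values of the lists belonged to Igfbp3 at 0.39 (SE 0.25), Ptprf at -0.36 (SE 0.19), Shc1 at 0.26 (SE 0.18), Bcl6 at 0.98 (SE 0.72) and Foxo4 at 0.44 (SE 0.26). In the interaction fit 0 genes of the 4 lists passed.

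Between the organs other binding proteins went against Igf1 and its carriers. Of 12 tested genes of the list of other ligands, receptors and binding proteins 8 were called lower in liver, Igfbp3, Igfbp5 and Igfbp7 among them, and 1, Prlr, higher. The widest were Igf1r, the IGF-1 receptor, at -6.63 (SE 0.72), Igfbp5 at -5.61 (SE 0.34) and Htra1 at -5.01 (SE 0.40, edgeR adjusted p = 4.652e-06 for Htra1). Igf1r was read at 0.0817 to 1.99 CPM in liver and 79.5 to 158 CPM in kidney, while Insr was not called between the organs. Of 41 insulin signalling genes 13 were called higher in liver and 8 lower, of 15 growth hormone genes 7 and 1, and of 18 FOXO genes 7 and 4, where 30% of all genes were called higher and 28.5% lower. The widest were Eif4ebp1, Trib3 and Ceacam1 (4.62, 4.46 and 2.91), Serpina3k, Egfr and Socs3 (13.22, 4.32 and 4.15), and Apoc3, Srebf1 and Mttp (9.63, 4.84 and 3.56 on the log2 scale).

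For each axis gene the 3 most similar of 12190 liver genes were found by Pearson's r of log2 CPM over the 8 liver libraries, given as a description. The r of these 30 genes ran from 0.91 to 0.995. Irs1 was nearest to Rnf152, Hook3 and Zeb2, and Igfbp4 to Atp6v0d1, Setmar and Dio1, a deiodinase that activates thyroid hormone. Insr was nearest to Stk35, Cramp1l and Zfyve27, Foxo1 to Acer2, Ssh2 and Asah2, and Igfbp2 to Plpbp, Cryzl1 and Pex7. Igfbp1 was nearest to Fcgr1, Twf2 and Hgsnat, Irs2 to Camk2b, Rel and Brd2, and Igf1 to Aph1c, Gm36028 and Acy1. Ghr was nearest to Nqo2, Gm9392 and Ankrd28, and Igfals to Nudt3, Slc16a5 and Pik3r3. No axis gene was among the 3 nearest of another.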

How the data were processed

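Total RNA of liver and kidney had been made into SMARTer mRNA libraries, per the labels' protocols. The submitters' processing notes name Partek 7.0, STAR 2.5.3a, DESeq2 and the build mm10. The authors deposited expected counts per gene (58.16% of liver and 63.8% of kidney values are whole), and a normalized signal per gene. In liver this signal is the count times 1 factor per library. In kidney it is not, and it covers 24399 genes against 20203 with counts. Strand use in counting is not given in the sources used here. Columns were matched to samples by name, and 0 per-sample columns went unused.

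Expected counts were rounded and tested with edgeR 4.0.16 (TMM, filterByExpr, quasi-likelihood) under R 4.3.3, separately for liver and kidney, on diet alone. The interaction and the organ comparison used the 17600 genes in both tables. Benjamini-Hochberg adjusted p-values under 0.05 over all genes tested counted as calls. CPM were computed with TMM library sizes of each tissue, so levels of liver and kidney were scaled apart, except for percentages of the liver level. Levels per kilobase divide CPM by the union of GENCODE M21 exons. The genes, lists and tests were chosen with earlier results of these data known. Named genes are the 10 axis genes, in each list those called, or else the 2 with the smallest p per diet comparison the 3 widest called between organs, and the 3 nearest by r. Of these, 1 list gene is not reported here. Genes outside this rule are Gm9747, the markers, Igf1r beyond its fold change and those under other observations, and they were named after their values were seen.

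As alternatives, scaling was changed to RLE or upper quartile, and the tool to DESeq2 1.42.0 or limma 3.58.1 on the deposited signal (pseudocounts 1 and 0.1), other filters, removal of 17 mitochondrial genes, a joint fit, the replicate block in kidney, summing HS5 and HS6, a transcript length offset and leaving out libraries. The fits were tested on simulated counts. edgeR's common biological coefficient of variation (0.314 for liver, 0.3 for kidney) is the spread between libraries beyond counting error. The libraries carry no stated molecular identifiers, so a read count is not a count of molecules.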

Additional observations from a re-analysis of the deposited data

Results flagged for a closer look

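Igfbp2 in high salt liver library HS7 stood at 427 CPM, far above the 227 to 247 CPM of the other 3 high salt libraries. Of the 20 sets of 4 liver values checked (10 genes, 2 diets) it was the 1 set with such a gap, and chance alone gives about 1 in 20.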

How the results depend on the processing

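Among liver genes the number past the threshold, 152, was 1122 with DESeq2, 260 with all 14 libraries in 1 fit, 12 with HS5 and HS6 summed, 52 without normal diet libraries 1 and 2, and 12 to 765 when 1 library was left out. The axis genes called in liver, 0 as reported, were 2 with DESeq2, 1 by limma with either pseudocount, 1 with all 14 libraries and 0 to 1 when 1 library was left out. DESeq2 called 11 kidney and 145 interaction genes, and 0 to 7 interaction genes passed when 1 library was left out. The cause was not tested. The organ comparison kept 5 of the 10 genes called as reported and DESeq2 added Ghr.

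Liver directions turned for Insr (-0.034 with the length offset, -0.059 without libraries 1 and 2), Foxo1 (-0.063 and -0.31), Igf1 (0.017), Igfbp2 (0.60) and Ghr (0.32) without that pair, and Irs2 (0.19 by limma with either pseudocount). Leaving out 1 library moved liver Ghr between -0.26 and 0.097 and Irs2 between -0.62 and 0.45. In kidney Foxo1 turned to 0.0078 with upper quartile scaling and 0.092 with the length offset, and leaving out 1 library moved Foxo1 between -0.15 and 0.27, Insr between -0.10 and 0.29, Irs1 between -0.42 and 0.21 and Igfbp1 between -0.60 and 0.13. The interaction of Ghr was -0.0047 with RLE and -0.0046 with DESeq2, and leaving out 1 library moved it between -0.13 and 0.26, Irs2 between -0.90 and 0.18, Igf1 between -0.22 and 0.081 and Igfals between -0.31 and 0.34. Between organs it moved Irs2 between -0.068 and 1.11 and Foxo1 between -0.19 and 0.55. None of these values passed the threshold.

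With the longest transcript as length, levels per kilobase were 5.69 (Insr), 57.6 (Igf1), 307 (Igfbp4) and 94.8 (Ghr) in liver, and 5.73, 1.78, 89.2 and 229 in kidney. Asking for 10 counts in every library left out kidney Igfbp2.

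With the replicate block in kidney 0 genes and 0 of the 10 were called. Same-numbered kidney libraries had correlations of 0.55, 0.54 and -0.16 in their deviations from the diet means, and not every library correlated best with its own number, so the numbers were not taken as pairs. No paired analysis was possible in liver because the high salt columns carry no titled number.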

Other observations

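Cish, Socs2 and Onecut1 are genes of growth hormone signalling that varied widely between liver libraries of 1 diet, and they were picked for that. Cish, an early STAT5 target, was read at 18.9, 1.69, 23.4 and 33.5 CPM in normal diet libraries 1 to 4 and at 5.10, 6.20, 74.9 and 3.62 CPM in HS5 to HS8 (edgeR log2 fold change 0.21, SE 1.04, adjusted p = 0.926). Socs2, another STAT5 target, was read at 10.2, 3.54, 19.3 and 15.5 CPM and at 11.3, 11.2, 42.1 and 5.46 CPM (log2 fold change 0.53, SE 0.64, adjusted p = 0.655). Onecut1 had its highest level in HS7 as well, at 31.2 CPM. HS7 thus held the highest Cish, Socs2 and Onecut1 of the 8 libraries, and library 2 the lowest of each. Socs3 and Bcl6 of the same list also varied widely, but in another order. Socs3 was highest in library 4 (33.4 CPM, against 15.6 in HS7) and lowest in HS6 (1.80 CPM). Bcl6 was highest in HS8 (40.6 CPM) and lowest in library 1 (2.33 CPM), and stood at 30.3 CPM in library 2. Igf1 in HS7 and library 2 was 357 and 410 CPM, inside the range of the rest.

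The spread within a diet was wider on the normal diet for 9 of the 10 axis genes in liver, where 76.3% of 15130 genes had the wider coefficient of variation on the normal diet (73.6% without HS5). The coefficients were 115% and 54.4% for Igfbp1, 85.7% and 14.04% for Irs2, 42.7% and 9.70% for Insr and 22.8% and 5.11% for Igf1, on the normal diet and high salt. Igfbp4 was the exception, at 2.76% and 8.37%. In kidney it was wider on the normal diet for 8 of the 10 genes and 66.3% of 15847 genes.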
